A study of Mus musculus with 6 samples.

Results

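The Notch genes described here were 10 genes of 22910 named on the array: the receptors Notch1, Notch2 and Notch3, the ligands Jag1, Jag2 and Dll1, and the target genes Hes1, Hey1, Heyl and Nrarp. They were chosen by name with earlier results of these data known, so the shares of all genes given beside their counts are a description and not a test. Their probes were found through the RefSeq accession that the array design gives each probe. Each gene had 1 probe. The cells were 2D-MAOs, airway epithelial cells of C57BL/6 mouse lung that were grown as organoids, dissociated and plated as a flat culture in 6-well plates. In 3 cultures TGF-β1, a secreted growth factor, was added from day 3, and 3 control cultures received none. The treatment was given in a medium that lacked noggin, a BMP antagonist, and A83-01, an inhibitor of TGF-β type I receptors, and the labels describe the controls as kept in the same medium. All cultures were collected on day 7 and each was hybridised to 1 array. The microarray methods give no concentration of TGF-β1 and the labels give no age of the mice. The methods call the cultures biological replicates but do not say whether they came from separate mice, so the p-values measure the spread between these cultures.

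Notch signalling passes between cells in contact. A ligand of the Jagged or Delta family on the surface of 1 cell binds a Notch receptor on its neighbour, the receptor is cut by a metalloprotease and then by γ-secretase, and its intracellular part enters the nucleus, where it joins the DNA-binding protein RBPJ and a Mastermind coactivator. Genes of the Hes and Hey families, which encode transcriptional repressors, and Nrarp, which encodes a feedback inhibitor, are classical targets. In airway epithelium the pathway is known for its part in the choice between secretory and ciliated fates and in the differentiation of basal cells.

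Of the 10 genes, 9 were well above background on all 6 arrays and were tested, and Heyl was well above background on none. The mean signal after TGF-β1 was higher than in controls for 8 of the 9 and lower for Hes1. No member passed the adjusted threshold of 0.05 in limma, against 2.04% of all 14345 genes tested. At an unadjusted p under 0.05 there were 4 members, Dll1, Hey1, Jag2 and Notch3, all higher in TGF-β1-treated 2D-MAOs, against 11.4% of all genes in that direction. In 3 members, Dll1, Hey1 and Jag2, every TGF-β1 array lay above every control array, which held for 12.9% of all genes tested. A log2 fold change above 0 was found for 45.8% of all genes. The median log2 fold change of the 9 members was 0.40, and that of all genes tested was -0.03. All log2 fold changes are TGF-β1 minus control on the quantile-normalised log2 signal. With 3 arrays against 3, an exact two-sided permutation test of a single gene cannot go below p = 0.1, so the p-values are those of limma, which shares the spread across genes. In a whole culture, a change in the number of cells of a type and a change in RNA per cell cannot be told apart.

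All arrays were on 1 slide with a common scan time, and between 55.0% and 59.0% of the probes of an array were well above background. TGF-β1 replicate 3 stood apart from the other TGF-β1 arrays. The Euclidean distance between TGF-β1 replicates 1 and 2 over the log2 signals of all genes tested was 32.3, that of replicate 3 to these arrays was 61.1 and 62.3, and that of replicate 3 to the controls was 54.4 to 60.9. Control arrays lay 38.7 to 48.1 from each other. Replicate 3 of each group was placed in slide row 2 and the other 4 arrays in row 1. The arrays showed epithelial RNA: Epcam, Cdh1, Krt8, Krt18 and Nkx2-1 were well above background on all 6. The goblet cell mucins Muc5ac and Muc5b and the type 2 alveolar surfactant genes Sftpb and Sftpc were well above background on none. The other type 2 alveolar markers, Lamp3 and Abca3, were so on all 6, as was the goblet marker Spdef, and the goblet marker Agr2 on 4. The type 1 alveolar markers Ager, Hopx, Aqp5 and Cav1 were well above background on all 6.

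Among the ligands, Dll1 had the largest difference of all members. Dll1 encodes a Delta-family ligand. Its log2 signal was 8.78, 9.08 and 9.54 in control replicates 1, 2 and 3 and 10.79, 10.26 and 10.11 in TGF-β1 replicates 1, 2 and 3. The 3 TGF-β1 arrays all lay above the highest control, and TGF-β1 replicate 3 was the lowest of them. Dll1 had a log2 fold change of 1.26 (SE 0.25, 95% interval 0.66 to 1.85), which is 2.39-fold, with an unadjusted p of 0.00163 and an adjusted p of 0.0623 from limma.

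Jag1, which encodes a Jagged-family ligand, had log2 signals of 10.63, 10.95 and 11.44 in controls and 12.29, 12.29 and 11.004 after TGF-β1. TGF-β1 replicates 1 and 2 lay above all controls, whereas TGF-β1 replicate 3 lay inside the control range. Jag1 had a log2 fold change of 0.85 (SE 0.39, 95% interval -0.06 to 1.77, limma adjusted p = 0.249). The other Jagged ligand gene, Jag2, had log2 signals of 11.18, 10.98 and 11.37 in controls and 11.69, 11.47 and 11.58 after TGF-β1. Its groups did not overlap and the arrays within each group lay close together, but the difference was small, 0.40 on the log2 scale (SE 0.14, 95% interval 0.08 to 0.72, limma adjusted p = 0.166), and the groups overlapped under scaling to the 75th percentile. Of the Jagged ligands, therefore, Jag1 had the larger difference and the overlapping groups, whereas Dll1 had the largest difference and separate groups. Under scaling to the 75th percentile, Dll1 alone of the ligands had separate groups.

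**Figure D1:**
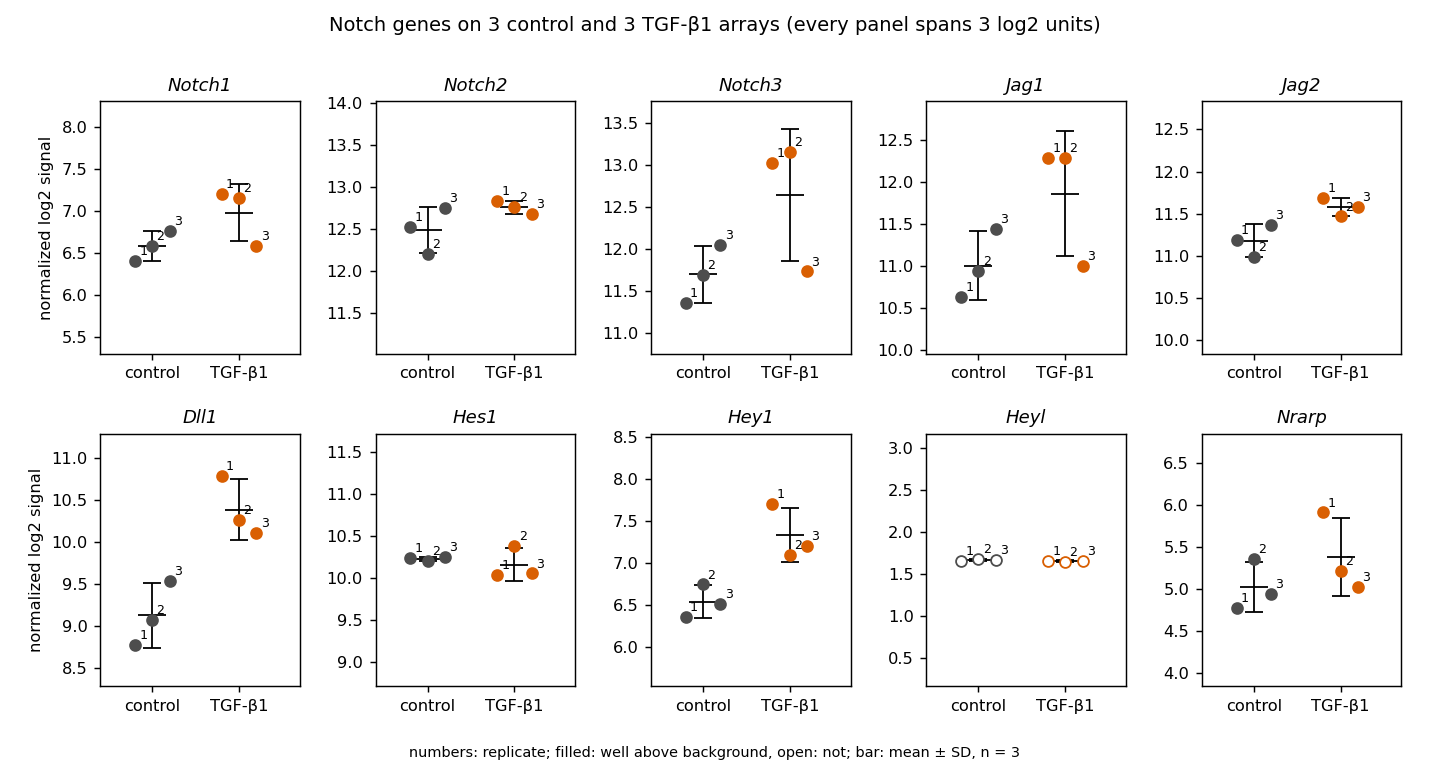
Normalised log2 signal of the 10 Notch genes on each array (vertical axis, 3 log2 units in every panel) in 3 control and 3 TGF-β1-treated 2D-MAO cultures. Numbers beside the points are replicates, open points were not well above background, and the bar is the mean ± SD (n = 3). TGF-β1 replicate 3 lies within the control range for Notch1, Notch2, Notch3, Jag1 and Nrarp, and the groups are separate for Dll1, Hey1 and Jag2.

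SMAD proteins, which carry the TGF-β signal to DNA, and RBPJ, which carries the Notch signal, bind short motifs in the DNA. The RefSeq promoters of GRCm38.p6, from 250 bases before to 50 bases after a transcription start, covered 7 of the 10 members in 8 windows, with 2 starts for Dll1. Hes1, Hey1 and Heyl had no entry. The windows were searched on both strands for the SMAD motif CAGAC, the RBPJ core TGGGAA and the E-box CACGTG, which Hes and Hey repressors can bind. The 3 motifs do not overlap as written. The 250 bases before the start are shown for the ligands Dll1 and Jag1, for the receptor gene with the largest difference, Notch3, and for Nrarp, which held the most matches. Sequences run 5′ to 3′ along the gene's own strand, and capitals mark every match, including CAGAC read from the other strand as GTCTG.
Dll1 promoter 1, chr17:15375824-15376073, minus strand: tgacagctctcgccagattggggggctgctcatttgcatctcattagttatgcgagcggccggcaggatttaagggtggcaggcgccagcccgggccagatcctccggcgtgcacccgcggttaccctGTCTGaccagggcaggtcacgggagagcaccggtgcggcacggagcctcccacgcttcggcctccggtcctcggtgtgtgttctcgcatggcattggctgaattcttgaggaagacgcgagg
Dll1 promoter 2, chr17:15376933-15377182, minus strand: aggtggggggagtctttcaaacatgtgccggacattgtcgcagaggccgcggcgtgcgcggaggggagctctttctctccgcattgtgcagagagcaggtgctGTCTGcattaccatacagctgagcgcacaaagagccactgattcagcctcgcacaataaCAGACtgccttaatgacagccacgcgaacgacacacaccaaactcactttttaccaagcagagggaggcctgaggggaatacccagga
Jag1 promoter, chr2:137116521-137116770, minus strand: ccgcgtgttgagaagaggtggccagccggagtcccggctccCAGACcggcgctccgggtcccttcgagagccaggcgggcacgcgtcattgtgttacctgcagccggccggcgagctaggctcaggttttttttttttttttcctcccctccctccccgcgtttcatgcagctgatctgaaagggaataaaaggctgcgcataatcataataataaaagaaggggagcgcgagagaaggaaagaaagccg
Notch3 promoter, chr17:32166891-32167140, minus strand: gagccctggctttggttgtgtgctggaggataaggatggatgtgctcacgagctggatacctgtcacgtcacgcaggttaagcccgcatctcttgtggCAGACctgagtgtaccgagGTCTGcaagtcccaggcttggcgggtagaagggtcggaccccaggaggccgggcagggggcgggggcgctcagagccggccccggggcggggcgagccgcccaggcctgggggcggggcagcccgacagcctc
Nrarp promoter, chr2:25180508-25180757, plus strand: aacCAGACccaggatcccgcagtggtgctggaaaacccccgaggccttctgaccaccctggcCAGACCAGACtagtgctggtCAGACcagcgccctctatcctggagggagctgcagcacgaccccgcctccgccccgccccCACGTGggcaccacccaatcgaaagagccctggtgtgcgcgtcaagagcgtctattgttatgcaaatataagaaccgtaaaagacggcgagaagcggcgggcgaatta
The SMAD motif occurred 1 time in the first and 2 times in the second Dll1 promoter, 1 time in that of Jag1, 2 times in that of Notch3 and 4 times in that of Nrarp, where 2 of the copies are adjacent. In Jag2, Notch1 and Notch2 the count was 0. This motif is common, and 49.6% of all 32851 RefSeq promoter windows of the same length held at least 1. No member window held the RBPJ core, which 25.6% of all windows held. The E-box was found in that of Nrarp, and in 7.15% of all windows. A match is only a match of letters. Of the members with a SMAD motif, Dll1, Notch3, Jag1 and Nrarp had log2 fold changes of 1.26, 0.94, 0.85 and 0.36. Those without one, Jag2, Notch1 and Notch2, had 0.40, 0.40 and 0.27. A link between the motif and the differences was not tested.

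Among the receptors, Notch3 had the largest difference. Its log2 signal was 11.36, 11.69 and 12.04 in controls and 13.02, 13.15 and 11.73 after TGF-β1. TGF-β1 replicates 1 and 2 lay about 1 log2 unit or more above the highest control, and TGF-β1 replicate 3 lay near the middle of the control range. For Notch3 this gave a log2 fold change of 0.94 (SE 0.39, 95% interval 0.01 to 1.86), with an unadjusted p of 0.048 and an adjusted p of 0.222 from limma.

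Notch1 gave a dim signal, and the brightness of its spot over the local background was 4.30 to 4.73 in control and 4.27 to 7.57 in TGF-β1 arrays. Its log2 signals were 6.40, 6.58 and 6.77 in controls and 7.20, 7.15 and 6.59 after TGF-β1, with a log2 fold change of 0.40 (SE 0.19, 95% interval -0.06 to 0.86, limma adjusted p = 0.276), which was 0.23 with normexp background. As for Notch3, TGF-β1 replicates 1 and 2 lay above all controls and TGF-β1 replicate 3 lay inside the control range.

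Notch2 had log2 signals of 12.52, 12.20 and 12.75 in controls and 12.84, 12.76 and 12.68 after TGF-β1. The log2 fold change of 0.27 (SE 0.16, 95% interval -0.10 to 0.64, limma adjusted p = 0.334) was the smallest of the receptors, and the spread of the controls was wider than that of the treated arrays. Notch2 had 0.13 without control replicate 2 and 0.12 under scaling to the 75th percentile. Levels of the 3 receptors were read from different probes and were not compared with each other.

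The target genes gave unlike values, with separate groups in Hey1 and overlapping groups in Hes1 and Nrarp. Hey1, which encodes a basic helix-loop-helix repressor, had log2 signals of 6.36, 6.74 and 6.51 in controls and 7.70, 7.09 and 7.20 after TGF-β1. All TGF-β1 arrays were above all controls, and replicate 3 was not the lowest of them. Hey1 had a log2 fold change of 0.79 (SE 0.19, 95% interval 0.34 to 1.25), which is 1.73-fold, with an unadjusted p of 0.00435 and an adjusted p of 0.0937 from limma.

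Hes1, a repressor of the same kind, had log2 signals of 10.24, 10.20 and 10.26 in controls and 10.04, 10.39 and 10.06 after TGF-β1. The controls lay within a narrow range, with 1 TGF-β1 array above it and the other 2 below it. Hes1 differed by -0.07 on the log2 scale (SE 0.13, adjusted p = 0.759 from limma), and the 95% interval of -0.37 to 0.23 excluded a difference as large as the estimate for Hey1. The interval of Hey1 began at 0.34, above the upper end of that of Hes1, while the difference between the genes was not tested.

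Nrarp was dim. The brightness of its spot over the local background was 1.79 to 2.33 in control and 1.91 to 3.21 in TGF-β1 arrays. The log2 signals were 4.77, 5.36 and 4.94 in controls and 5.91, 5.22 and 5.03 after TGF-β1, so that only TGF-β1 replicate 1 lay above the controls. The difference on the log2 scale was 0.36 (SE 0.26, 95% interval -0.26 to 0.99, limma adjusted p = 0.429), and it was 0.099 without TGF-β1 replicate 1 and 0.093 with normexp background. Heyl, a further Hey-family repressor gene, never reached the level called well above background, and its spot over local background was 1.18 to 1.24 in control and 1.24 to 1.40 in TGF-β1 arrays. No fold change is given for it.

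**Figure D2:**
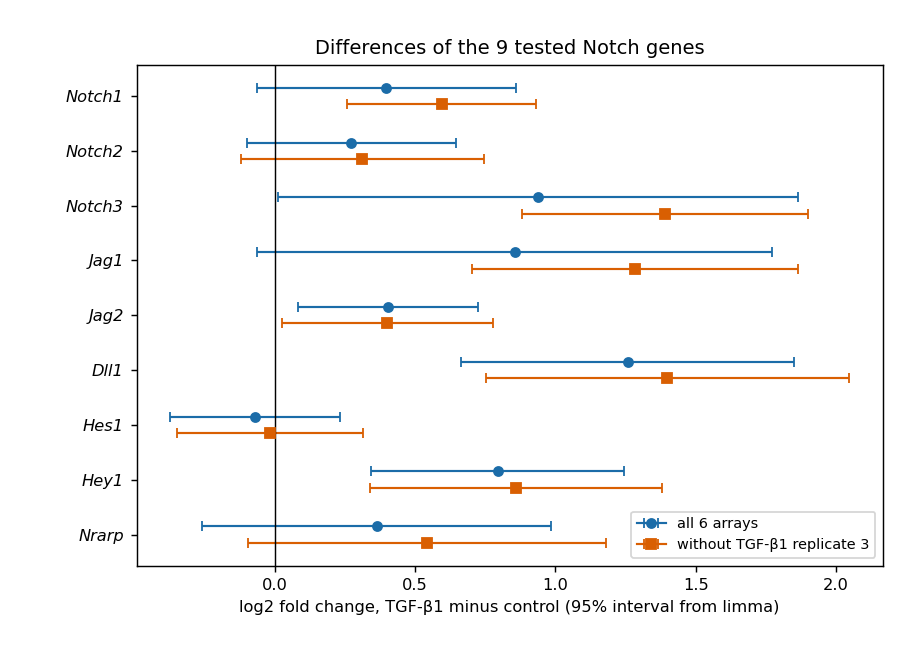
Log2 fold change, TGF-β1 minus control, of the 9 tested Notch genes (horizontal axis) with the 95% interval from limma, for all 6 arrays (circles) and without TGF-β1 replicate 3 (squares). The squares lie farthest to the right of the circles for Notch3 and Jag1, and the values of Hes1 stay at 0 within their intervals.

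When arrays were left out in turn, the number of members past the adjusted threshold changed with 1 of them. TGF-β1 replicate 3 lay inside the control range for 5 of the 9 tested members, Notch1, Notch2, Notch3, Jag1 and Nrarp, and was the lowest TGF-β1 array in 6 of 9. TGF-β1 replicates 1 and 2 both lay above all controls in 7 of 9. Without TGF-β1 replicate 3, 5 members passed the adjusted threshold in limma and all were higher, where 9.08% of all genes tested passed it in that direction. These were Notch3 with a log2 fold change of 1.39 (adjusted p = 0.0144), Jag1 with 1.28 (adjusted p = 0.0241), Dll1 with 1.40 (adjusted p = 0.0253), Notch1 with 0.59 (adjusted p = 0.0403) and Hey1 with 0.86 (adjusted p = 0.0469). Notch2, Jag2, Hes1 and Nrarp did not pass, with log2 fold changes of 0.31, 0.40, -0.02 and 0.54. Non-overlapping groups, all higher, were then found for 7 members, against 25.2% of all genes tested. The same 7 members were separate without control replicate 3, against 22.1% of all genes tested. Control replicate 3 was the highest control for Notch1, Notch2, Notch3, Jag1, Jag2, Dll1 and Hes1. No array other than TGF-β1 replicate 3 brought a member past the threshold when it was left out. TGF-β1 replicate 3 shared slide row 2 with control replicate 3. With the slide row as a block in limma, 0 members passed, and the adjusted p was 0.0738 for Dll1, 0.207 for Notch3 and 0.245 for Jag1.

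**Figure D3:**
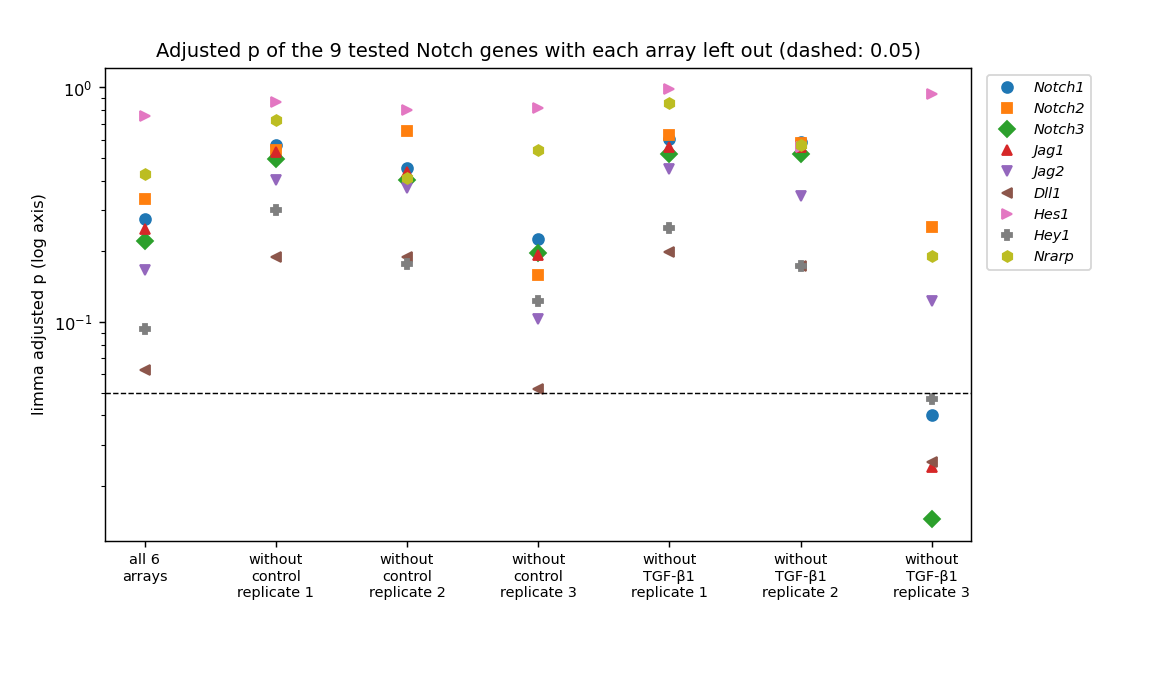
Limma adjusted p (log axis) of the 9 tested Notch genes with all 6 arrays and after leaving out each single array; the dashed line is 0.05. Points lie below the line in the column without TGF-β1 replicate 3 alone, where Notch3, Jag1, Dll1, Notch1 and Hey1 are below it.

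The surrounding pathway was described with 49 further genes grouped by role. Of these 48 had a named probe and 40 were tested. The log2 fold change was above 0 in 27 and below 0 in 13, with a median of 0.14. Notch4 alone passed the adjusted threshold, which 1.63% of all genes tested passed in the higher direction. At an unadjusted p under 0.05 there were 9 genes, all higher, against 11.4% of all genes tested in that direction. In 10 genes the TGF-β1 arrays all lay above the controls, against 12.9% of all genes, and in 0 genes they all lay below, against 13.5%.

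Notch4 encodes the remaining Notch receptor, which is best known from endothelium. Its log2 signals were 7.15, 7.06 and 6.85 in controls and 7.99, 7.83 and 8.06 after TGF-β1. The groups were clearly separate and TGF-β1 replicate 3 was the highest array, unlike in Notch1 and Notch3. Notch4 rose by a log2 fold change of 0.94 (SE 0.13, 95% interval 0.64 to 1.24), which is 1.92-fold, with a limma adjusted p of 0.0197. The call was lost without control replicate 1 (adjusted p = 0.0611), control replicate 2 (0.0821), TGF-β1 replicate 1 (0.102) or TGF-β1 replicate 2 (0.0653), and held without either replicate 3. It was also lost with the replicate number as a block (0.0746), without the filter on dim probes (0.0605) and by the methods' t-test after Benjamini-Hochberg adjustment (0.139). Of the endothelial markers, Cdh5, Cldn5, Emcn, Kdr and Tek were well above background on none of the arrays, and the remaining marker, Pecam1, differed by 0.13 on the log2 scale (adjusted p = 0.505 from limma). The summed linear signal of the 6 endothelial markers was 82.6 to 98.6 in controls and 89.4 to 103 after TGF-β1.

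Among the ligands and ligand-like genes, 3 of 5 were tested. Dlk1, which encodes a membrane protein related to Delta, was well above background on 1 control array and 2 TGF-β1 arrays. Its log2 signals were 4.01, 3.55 and 4.25 in controls and 7.44, 7.02 and 3.71 after TGF-β1, so that the treated arrays split as they did for Notch3 and Jag1. Dlk1 differed by 2.12 on the log2 scale (limma adjusted p = 0.235), and by 3.29 without TGF-β1 replicate 3 (limma adjusted p = 0.00285). Both values are differences from controls of which 2 were not well above background, and with normexp background and all arrays the difference was 0.92. Dll4, another Delta-family ligand gene, had a log2 fold change of -0.04 whose sign turned under scaling to the 75th percentile (0.12). The probe of Dll3 was well above background on none of the arrays.

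The ligand ubiquitin ligases drive the uptake of ligands, which ligands need in order to signal. Neurl1b had the lowest log2 fold change of the pathway genes, -1.04 (limma adjusted p = 0.248). Its log2 signals were 13.16, 12.87 and 13.76 in controls and 11.84, 11.54 and 13.29 after TGF-β1, again with TGF-β1 replicate 3 inside the control range and the other TGF-β1 arrays outside it. Without that array it was -1.57 (limma adjusted p = 0.0206). Mib2 had 0.33 with all arrays, and 0.15 under scaling to the 75th percentile.

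The 4 tested glycosyltransferases, which add sugars to the extracellular part of Notch, had log2 fold changes from -0.21 to 0.54. Poglut1, the highest, had log2 signals of 10.82, 10.81 and 10.98 in controls and 11.79, 11.70 and 10.73 after TGF-β1, with TGF-β1 replicate 3 below the controls. Lfng, a Fringe that alters the response of Notch to its ligands, had 0.49 (limma adjusted p = 0.16) and separate groups. All 8 tested genes for the cleavage of receptors, which include Adam10 and the γ-secretase subunits Psen2, Ncstn, Aph1a, Aph1b, Aph1c and Psenen, had log2 fold changes above 0. These were small, from 0.04 to 0.45, and the lowest adjusted p was 0.223. Adam10 had the largest (0.45), followed by Aph1b (0.40). Their order turned under scaling to the 75th percentile (0.25 and 0.35) and with the mean of a gene's probes (0.29 and 0.40).

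In the nuclear complex, Rbpj had a log2 fold change of -0.04, and Maml2, which encodes a Mastermind coactivator, had 0.68 (limma adjusted p = 0.092). The log2 signals of Maml2 were 10.26, 10.27 and 10.35 in controls and 10.92, 10.72 and 11.30 after TGF-β1. The controls lay close together and all TGF-β1 arrays were above them, with TGF-β1 replicate 3 the highest. Snw1, the lowest of the complex, had -0.14, and -0.33 under scaling to the 75th percentile. All 4 corepressor genes had log2 fold changes above 0, among them Cir1 at 0.17, a value whose sign turned under scaling to the 75th percentile (-0.01).

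Among the genes for turnover and inhibition, 8 of 9 were tested, 4 on each side of 0. Numb, which encodes an inhibitor of Notch receptors, had 0.40 and Fbxw7, which marks the intracellular part of Notch for degradation, had 0.36. Of the 6 other Hes and Hey genes, Hes6 and Hes7 were tested. Hes6, which is known to oppose Hes1, had log2 signals of 12.75, 12.88 and 12.75 in controls and 13.20, 13.28 and 13.18 after TGF-β1. Its 3 treated arrays lay above all controls within a narrow range, and they differed from the controls by 0.43 on the log2 scale (SE 0.10, limma adjusted p = 0.0935). The difference was 0.24 under scaling to the 75th percentile and 0.18 with the mean of the probes of Hes6 (limma adjusted p = 0.343). Hes7 had -0.24. Hes3, Hes5 and Hey2 were well above background on none of the arrays.

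**Figure D4:**
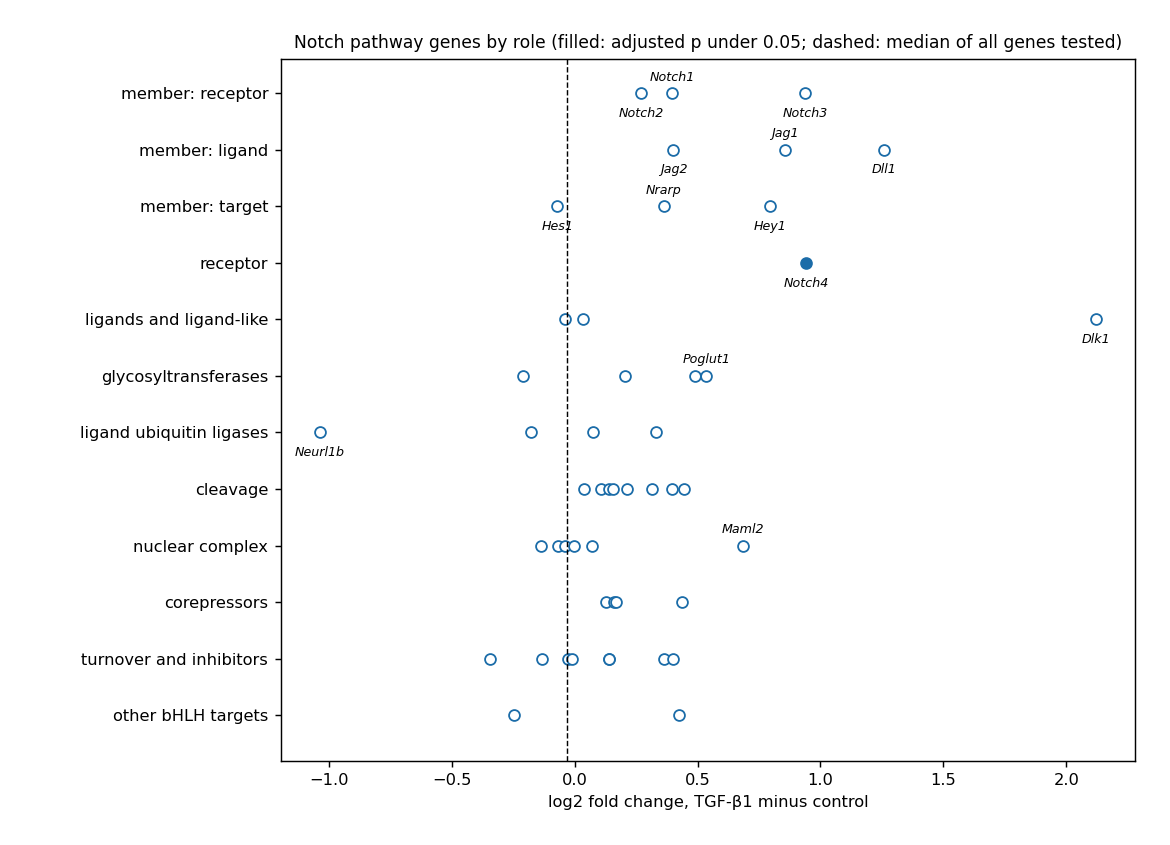
Log2 fold change, TGF-β1 minus control (horizontal axis), of the 9 tested Notch genes and 40 other tested pathway genes, by role (vertical axis). Each circle is 1 gene, the filled circle is Notch4, with an adjusted p under 0.05, and the dashed line is the median of all genes tested, -0.03; the 8 cleavage genes all lie to the right of 0.

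Without TGF-β1 replicate 3, 10 of the 40 pathway genes passed the adjusted threshold, against 15.4% of all genes tested in either direction. Among them Notch4, Dlk1, Poglut1, Adam10, Aph1b, Maml2, Fbxw7 and Hes6 were higher, and Neurl1b was lower. They included genes in which TGF-β1 replicate 3 lay inside or below the control range, such as Dlk1 and Poglut1, and genes in which it lay above all controls, such as Notch4, Maml2 and Hes6.

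Markers of airway cell types were set beside these values, and the markers named here by level were chosen after their values were seen. The 5 basal cell markers had a summed linear signal of 44456 to 60723 in controls and 56658 to 148505 after TGF-β1. Krt5, a basal keratin, had log2 signals of 12.68, 12.64 and 13.43 in controls and 15.17, 14.45 and 13.23 after TGF-β1, with TGF-β1 replicate 3 inside the control range as in Notch1, Notch3 and Jag1. Krt14 differed by 1.55 on the log2 scale (adjusted p = 0.0859 from limma), whereas Krt15 differed by -1.06, with log2 signals of 14.14, 14.43 and 13.98 in controls and 14.07, 13.81 and 11.49 after TGF-β1. No basal marker passed the adjusted threshold with all arrays. Without TGF-β1 replicate 3, where 15.4% of all genes tested passed, Krt14 differed by 1.92 (limma adjusted p = 0.0109). Of the 6 ciliated cell markers, Foxj1, the regulator of motile cilia, passed it, with log2 signals of 7.56, 7.55 and 7.64 in controls and 9.02, 9.09 and 9.05 after TGF-β1, a difference of 1.47 on the log2 scale (adjusted p = 0.00239 from limma). TGF-β1 replicate 3 did not stand apart from the other TGF-β1 arrays in Foxj1. Of the ciliated markers, 4 had log2 fold changes above 0 and 2 below it, with Gmnc at -0.84 (limma adjusted p = 0.249) and Ccno at -0.65 (limma adjusted p = 0.52). The 5 club cell markers had a summed linear signal of 165199 to 172351 in controls and 156754 to 164309 after TGF-β1, and none passed. Nearly all of this sum was Cyp2f2, with a mean log2 signal of 17.35 in controls and 17.28 after TGF-β1. The sum therefore does not show changes of the other club markers. Scgb1a1 differed by -2.27 on the log2 scale (limma adjusted p = 0.158), with 10.83, 10.18 and 7.77 in controls and 7.00, 7.57 and 7.42 after TGF-β1. Without control replicate 3 it differed by -3.18 (limma adjusted p = 0.0205). With any other single array left out, its limma adjusted p was 0.118 to 0.414. Scgb3a2 differed by 1.05, and in both genes the groups did not overlap. Of the fibroblast and mural markers, Col1a1 and Col1a2 were well above background on every treated array and on no control array, so that both met the filter through the treated group alone and no test is given for them. Pdgfrb was well above background on no array, and the summed linear signal of the 7 genes was 10836 to 17565 in controls and 12491 to 18100 after TGF-β1. Most of this sum was Acta2, with a mean log2 signal of 13.69 in controls and 13.71 after TGF-β1. Dcn differed by 1.00 on the log2 scale (limma adjusted p = 0.273) and Pdgfra by 0.21 (limma adjusted p = 0.484). The part of these cell types in the values of the Notch genes was not tested.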

How the data were processed

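RNA of 3 TGF-β1-treated and 3 control 2D-MAO cultures was hybridised to Agilent SurePrint G3 Mouse arrays with 1 dye, Cy3. The files deposited by the authors hold the intensity of each spot on a linear scale from Agilent Feature Extraction 11.0.1.1, background-subtracted and without normalisation between arrays. Control spots and spots marked uneven or as outliers were left out, spots of a probe were averaged, and log2 signals were normalised by quantiles. Of 56599 probes, 32991 received a symbol through RefSeq (GRCm38.p6). Genes were represented by their brightest probe well above background on at least 3 of 6 arrays, which left 14345 genes. Groups were compared with limma 3.58.1 (R 4.3.3), which was tested on simulated data, and p-values were adjusted over all genes by Benjamini-Hochberg. The number of arrays limits the precision.

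The members and gene lists were chosen with earlier results of these data known. The text names all members and, from the pathway list, genes with adjusted p under 0.05 and up to 2 per role with the largest fold change in size; other named genes were chosen after their values were seen. Alternative settings were a 75th-percentile scaling, normexp background (offset 50, on the median signal because the files hold no mean signal), a gene's mean over its probes, no filter on dim probes or a stricter one, a trended and robust variance prior, array weights, blocks for replicate and slide row, the methods' unpaired t-test and each array left out. The labels and methods do not say whether replicate numbers pair the samples, and the block was kept as an alternative. A gene that the naming rule selects is not reported here.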

Additional observations from a re-analysis of the deposited data

How the results depend on the processing

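The direction of the difference was the same for all 9 tested members under every setting tried. The number of members with an adjusted p under 0.05, 0 in the comparison as reported, was 1 with normexp background (Dll1, limma adjusted p = 0.0344), 1 with a trended and robust variance prior (Dll1, 0.028), 6 with array weights and 3 by the methods' t-test without adjustment, and ranged from 0 to 5 when 1 array was left out. Within slide row 1, an alternative chosen after seeing the data that leaves out replicate 3 of each group, it was 4 (Notch1, Notch3, Jag1 and Dll1). The array weights ran from 0.297 for TGF-β1 replicate 3 and 0.447 for control replicate 3 to 2.27 for TGF-β1 replicate 1, and with them 34.7% of all genes tested passed, against 26.8% within slide row 1, 2.93% with normexp background, 3.53% with the trended prior and 17.1% by the methods' t-test without adjustment. The share was 0.323% without the filter, 0.0627% by the methods' t-test after adjustment and 0.39% to 15.4% when 1 array was left out. Members whose groups did not overlap numbered from 3 to 7 when 1 array was left out, with 7 without control replicate 3 (22.1% of all genes tested, higher) or TGF-β1 replicate 3 (25.2%), 7 within slide row 1 (32%) and 2 under scaling to the 75th percentile (10.4%). Of the other pathway genes, 1 as reported, the number with an adjusted p under 0.05 was 0 without a filter on dim probes, 3 with the trended prior, 15 with array weights, 0 with the replicate block, 0 by the methods' t-test after adjustment, 8 by it unadjusted and 12 within slide row 1, and ranged from 0 to 10 when 1 array was left out. The replicate block, for which same-numbered arrays had correlations of deviations of -0.00790, 0.333 and -0.0470, left 0 members past the threshold (Dll1, adjusted p = 0.149) and lowered the calls over all genes from 234 higher and 58 lower to 85 and 18. Notch4 had an adjusted p of 0.0746 with the block, 0.0605 without the filter and 0.139 by the methods' t-test after Benjamini-Hochberg adjustment. Signs turned in genes with values near 0: Dll4 had 0.12 with scaling to the 75th percentile, 0.081 with array weights, 0.25 within slide row 1 and -0.38 to 0.29 when 1 array was left out, and Cir1 had -0.014 with scaling to the 75th percentile and -0.083 with the mean of its probes. The cause was not tested for any of these. Nrarp, Hey1 and Notch1 lay nearest to background among the tested members.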

Other observations

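The genes whose log2 signals, centred on their mean over the 6 arrays, lay nearest to those of Dll1 were Hunk (Euclidean distance 0.380, log2 fold change 1.31), Ext1 (0.403, 1.18) and 2310067E19Rik (0.408, 1.06). Those nearest to Hes1 were Otof (0.0751, log2 fold change -0.05), Pcf11 (0.132, -0.04) and Nlrc3 (0.133, -0.08). These distances describe 6 arrays and were not tested.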
